A study of Mus musculus with 6 samples.

Results

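The miR-221 and miR-222 cluster was followed across small RNA libraries of the mouse nucleus accumbens (NAc), a reward region of the ventral striatum. Its members were the 4 mature miRNAs cut from its 2 hairpins, mmu-miR-221-3p, mmu-miR-221-5p, mmu-miR-222-3p and mmu-miR-222-5p, chosen by name out of 1364 miRNAs with counts. All 4 had counts in every library, so none was lost to a filter on low values. Adult male C57BL/6N mice aged 7 to 8 weeks were trained in conditioned place preference (CPP), in which a chamber is paired with an injection. The morphine group received morphine at 10 mg/kg, given intraperitoneally, during 6 conditioning days, with saline in the alternate session of each day, and the saline group received saline. CPP was tested on day 7, and the NAc was taken 0.5 h after the test. Each group had 3 libraries, made from 3 μg of total RNA each. The description of the series implies 2 mice per library, and a legend of the study 1 mouse.

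MicroRNAs are short RNAs that guide Argonaute proteins to messenger RNAs, mostly by pairing with the seed, which is bases 2 to 8 of the miRNA. A hairpin precursor is cut into a 5p arm and a 3p arm, of which 1 is usually the more abundant. miR-221 and miR-222 lie side by side on chromosome X, are thought to be cut from a shared primary transcript, and are best known in endothelial cells, vascular smooth muscle and dividing cells, where the 3p arms repress the receptor gene Kit and the cell cycle inhibitor gene Cdkn1b.

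The sequences show which members share a seed and how the arms lie in their hairpins. In the RefSeq records of the GRCm38.p6 build, both hairpins were on the minus strand of chromosome X, Mir221 at chrX:19146294-19146388 and Mir222 at chrX:19146893-19146971, with 504 bases between them. Neither overlapped another gene of the GENCODE vM21 annotation (0 genes). The nearest annotated gene was Gm14636, a processed transcript on the same strand at 10009 bases from Mir222, and the nearest protein-coding gene, Tex13c3, was 332448 bases away. The mature sequences are written 5′ to 3′ with the seed in capitals. miR-221-3p lay at chrX:19146307-19146329, miR-221-5p at chrX:19146344-19146369 and miR-222-3p at chrX:19146901-19146923, all on the minus strand. The mature sequence of miR-222-5p was not used here.
mmu-miR-221-3p: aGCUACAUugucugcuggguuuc
mmu-miR-222-3p: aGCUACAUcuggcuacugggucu
mmu-miR-221-5p: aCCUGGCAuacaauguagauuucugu

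The 3p arms had the same first 8 bases, AGCUACAU, and so the same seed. Over their 23 positions without gaps, 11 bases (47.8%) were identical, and both also held the later stretch CUGGGU. Of 1679 mature miRNA names in RefSeq, 3 had this seed, the third being miR-1928, which the deposited table did not list. The seed of miR-221-5p was found in no other name. No other miRNA of the table had counts within 10% of those of a member in all 6 libraries (0 miRNAs).

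The hairpins are written from their 5′ end with the listed mature arms in capitals.
Mir221: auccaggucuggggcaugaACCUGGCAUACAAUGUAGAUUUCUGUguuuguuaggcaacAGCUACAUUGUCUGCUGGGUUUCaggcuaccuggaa
Mir222: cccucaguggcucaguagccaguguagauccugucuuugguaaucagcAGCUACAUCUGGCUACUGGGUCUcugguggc

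The deposited table gave raw read counts per mature miRNA, with totals of 4183333 to 9842050 counts per library. Levels are given as CPM, counts scaled to a library total of 1000000, after TMM scaling, which adjusts the totals for differences in composition. Saline replicate 2 stood apart from the other saline libraries: its Spearman correlation with them was 0.869 and 0.874 over 899 miRNAs, against 0.952 between those 2, and 0.907 to 0.926 with the morphine libraries. All 6 neuronal miRNAs used to check the tissue had counts in every library: miR-9-5p was at 60964 to 211199 CPM, miR-128-3p at 55107 to 104566, miR-129-5p at 5072 to 37534, miR-124-3p at 1324 to 7795, miR-138-5p at 380 to 1238 and miR-137-3p at 22.1 to 518. The records list the libraries as separate samples without naming the animals of each, so p-values measure the spread between these samples. In whole tissue, fewer cells of a type and less miRNA per cell cannot be told apart.

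miR-221-3p, the most abundant member, was lower in morphine-treated mice. Its levels were 3037, 2067 and 3169 CPM in saline replicates 1 to 3 and 1324, 1111 and 1263 CPM in morphine replicates 1 to 3. Every saline library was above every morphine library, and saline replicate 2 was the saline library nearest to the morphine group. The counts behind these levels were 16591, 13782 and 30215 in saline and 11972, 7581 and 8044 in morphine. The mean was 2758 ± 602 CPM in saline and 1233 ± 110.0 CPM in morphine (SD, n = 3 each), which is 2.24-fold lower in the fitted model. The log2 fold change was -1.16 ± 0.45 (SE, 95% interval -2.09 to -0.23), with an unadjusted p of 0.0166 and an adjusted p of 0.134 by the edgeR quasi-likelihood test with Benjamini-Hochberg adjustment over all 1364 miRNAs. It therefore passed the criteria of the study, a |log2 fold change| of at least 0.58 with an unadjusted p of at most 0.05, but not an adjusted p under 0.05. Its call was lost without saline replicate 1 (-0.99), saline replicate 3 (-0.99), morphine replicate 2 (-1.07) or morphine replicate 3 (-1.18), with unadjusted p of 0.0692, 0.0768, 0.1004 and 0.0766 in the same edgeR test.

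miR-222-5p, the arm of the Mir222 hairpin with the fewest counts, was lower in the morphine group as well. Its levels were 50.7, 62.4 and 57.4 CPM in saline and 21.0, 16.8 and 26.4 CPM in morphine, again with no overlap. These levels rested on 277, 416 and 547 counts in saline and 190, 115 and 168 counts in morphine. The mean was 56.8 ± 5.86 CPM against 21.4 ± 4.78 CPM (SD, n = 3 each), 2.65-fold lower, with a log2 fold change of -1.41 ± 0.51 (SE, 95% interval -2.46 to -0.35). The unadjusted p was 0.0112 and the adjusted p 0.1003 in edgeR. Without morphine replicate 2 the log2 fold change was -1.24 with an unadjusted edgeR p of 0.0809, and the call was lost.

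miR-222-3p, which shares its seed with miR-221-3p, did not pass either criterion. Its levels were 2691, 1283 and 2157 CPM in saline and 1094, 1546 and 1517 CPM in morphine. Saline replicate 2 was below 2 of the 3 morphine libraries, so the groups overlapped. The mean was 2044 ± 711 CPM in saline and 1385 ± 253 CPM in morphine (SD, n = 3 each), and the log2 fold change was -0.56 ± 0.46 (SE, 95% interval -1.51 to 0.39, unadjusted p of 0.236 and adjusted p of 0.525 in edgeR). The interval holds 0 as well as the fold change of miR-221-3p. With saline replicate 2 left out, miR-222-3p was at -0.81 on the log2 scale, with an adjusted edgeR p of 0.00293. In that setting 29.1% of all miRNAs had an adjusted p under 0.05. Adjusted p of miR-222-3p over all its alternatives ran from 0.00293 to 0.873.

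miR-221-5p, the less abundant arm of the Mir221 hairpin, did not differ beyond its spread. Its levels were 229, 261 and 178 CPM in saline and 322, 195 and 221 CPM in morphine, with morphine replicate 1 the highest and the groups overlapping. The mean was 223 ± 41.5 CPM in saline and 246 ± 67.2 CPM in morphine (SD, n = 3 each). The log2 fold change was 0.14 ± 0.46 (SE, 95% interval -0.82 to 1.11, adjusted p of 0.865 in edgeR), and its sign turned with the scaling, to -0.16 with library totals and -0.12 with the upper quartile.

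**Figure D1:**
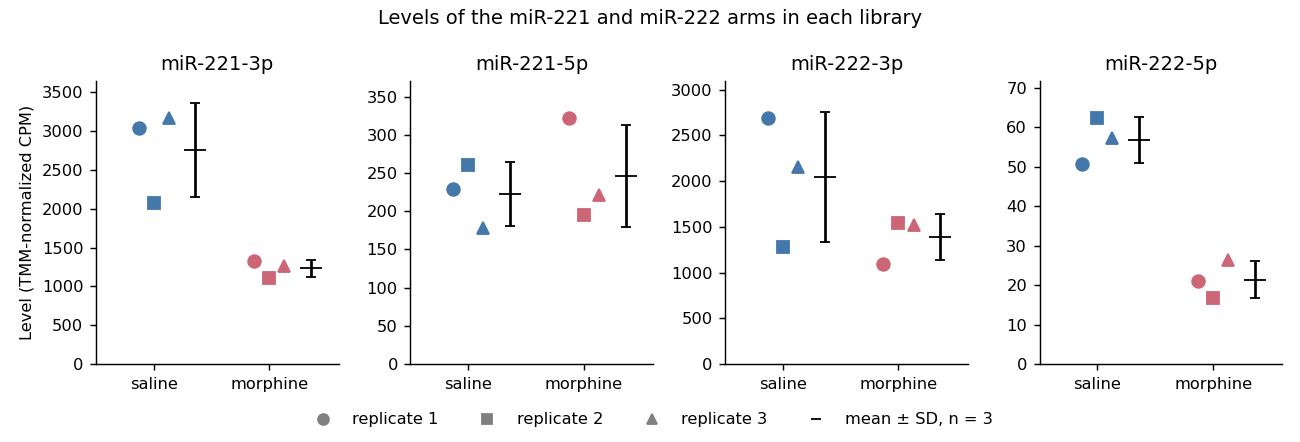
Level of each mature arm (vertical axes, TMM-normalized CPM from 0, a separate scale per panel) in the 3 saline and 3 morphine libraries, with the replicate number as the symbol and mean ± SD beside the points. miR-221-3p and miR-222-5p have every saline library above every morphine library, while miR-222-3p and miR-221-5p overlap.

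Thus 2 of the 4 members were called by the criteria of the study and both were lower, beside 264 of 1364 miRNAs (19.4%) called in either direction and 132 (9.68%) called lower. At an adjusted p under 0.05, 0 of the 4 members were called in edgeR, beside 71 miRNAs (5.21%) of the table. In DESeq2 2 of the 4 had an adjusted p under 0.05, beside 156 miRNAs (11.4%). At an unadjusted p under 0.05 in edgeR there were 2 of the 4, beside 264 miRNAs (19.4%). Lower values without overlap, as in 2 of the 4 members, were found in 135 miRNAs (9.9%), and no overlap in either direction in 302 (22.1%). With 4 members a count of this kind is small, and nothing particular to the cluster is read from it. The median log2 fold change of all miRNAs was -0.15 with TMM and -0.40 with library totals. Relative to that median, miR-221-3p was at -1.01 and -1.17, miR-222-5p at -1.26 and -1.35, miR-222-3p at -0.41 and -0.59, and miR-221-5p at 0.29 and 0.24. Without saline replicate 2, 3 of the 4 members passed the criteria and the same number an adjusted p under 0.05, but so did 37.0% and 29.1% of all miRNAs.

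**Figure D2:**
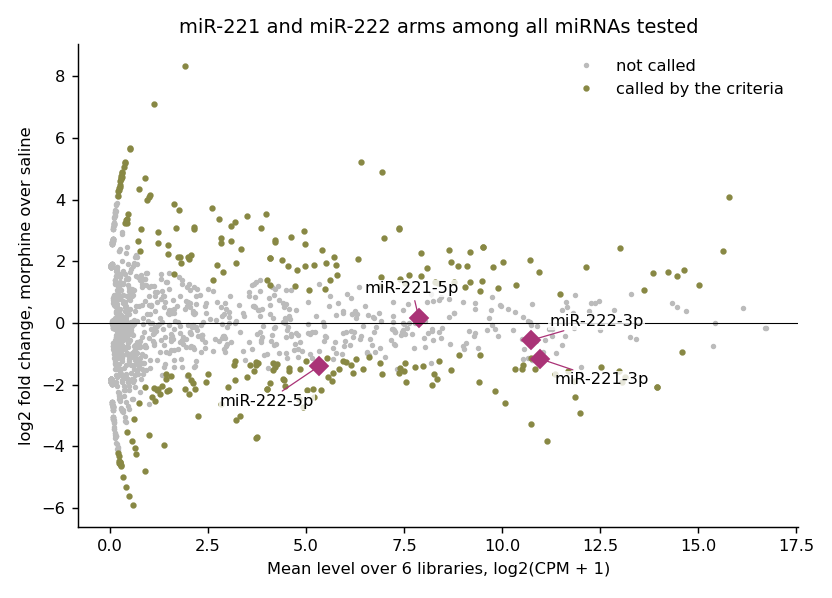
log2 fold change of morphine over saline (vertical axis) against the mean level over 6 libraries as log2(CPM + 1) (horizontal axis) for 1364 miRNAs, with those called by the criteria in a darker colour and the 4 members as diamonds. miR-221-3p and miR-222-5p lie at -1.16 and -1.41 among many other called miRNAs, and miR-221-5p lies close to 0.

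A read covers a whole miRNA, so levels are read without a length correction. By mean level over all libraries, miR-221-3p ranked 59 of 1364 miRNAs, miR-222-3p ranked 67, miR-221-5p ranked 160 and miR-222-5p ranked 278. In saline, miR-221-3p ranked 49 and miR-222-3p ranked 68. In morphine, the order of these neighbours was the other way, at 73 and 67, and in neither group were their levels free of overlap. The level of the whole cluster, summed over the 4 arms, was 6007, 3673 and 5562 CPM in saline and 2761, 2869 and 3027 CPM in morphine. All 3 saline libraries were above all 3 morphine libraries in this sum, with means of 5081 ± 1239 and 2886 ± 134 CPM (SD, n = 3 each) and a log2 difference of -0.79. The exact two-sided permutation p was 0.1, the smallest that 3 against 3 libraries can give. The 3p arms made up 87.6% to 95.8% of the sum, so it mostly followed miR-221-3p and miR-222-3p.

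The 2 arms of a hairpin are cut from 1 precursor, and their ratio within a library does not depend on the scaling between libraries. For miR-221, the 5p count divided by the 3p count was 0.0755, 0.126 and 0.0563 in saline and 0.243, 0.176 and 0.175 in morphine. Every morphine library was above every saline library, and the 5p arm made up 7.85% ± 3.02 of the counts of the hairpin in saline and 16.5% ± 2.69 in morphine (SD, n = 3 each). The log2 ratio was higher in morphine by 1.27 ± 0.48 (SE), which is 2.41-fold, with an unadjusted p of 0.0380 and an adjusted p of 0.153 by limma over 258 arm pairs. Among these pairs, 69 (26.7%) reached an unadjusted p of 0.05 or less and 17 (6.59%) an adjusted p under 0.05. Leaving out any single library other than saline replicate 2 raised the unadjusted limma p above 0.05, with differences of 1.003 (without saline replicate 3), 1.11 (without morphine replicate 1), 1.22 (without saline replicate 1), 1.35 (without morphine replicate 2) and 1.35 (without morphine replicate 3). The 2 arms differ in base composition, at 47.8% G and C in miR-221-3p and 38.5% in miR-221-5p. Over 366 miRNAs, the log2 fold change correlated with GC content at an r of -0.26. With a GC correction, chosen after seeing the data, miR-221-5p moved from 0.14 to -0.54 and miR-221-3p stayed at -1.16. The fold changes of the arms were then closer together, and the arm ratio itself was not recomputed with it.

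For miR-222, the 5p count divided by the 3p count was 0.0188, 0.0486 and 0.0266 in saline and 0.0192, 0.0109 and 0.0174 in morphine. Saline replicate 1 lay within the morphine values, so the groups overlapped. The 5p arm made up 3.03% ± 1.44 of the counts in saline and 1.56% ± 0.425 in morphine (SD, n = 3 each), and the log2 difference was -0.91 ± 0.54 (SE, unadjusted p of 0.138 and adjusted p of 0.292 in limma). The 5p arm was the minor arm of both hairpins in every library. Per library, the log2 arm ratio of miR-221 minus that of miR-222 was 2.001, 1.37 and 1.08 in saline and 3.66, 4.004 and 3.33 in morphine, a difference of 2.18 between the group means. This contrast was chosen after the values were seen, so it is a description with no test.

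Shifts of this size were common among arm pairs. Of the 258 pairs, 118 had a higher and 140 a lower 5p to 3p ratio in morphine, with a median difference of -0.16 and quartiles of -1.26 and 0.80 on the log2 scale. The absolute shift was larger than that of miR-221 in 109 pairs and larger than that of miR-222 in 149 pairs. The ratio did not overlap between groups in 92 pairs.

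**Figure D3:**
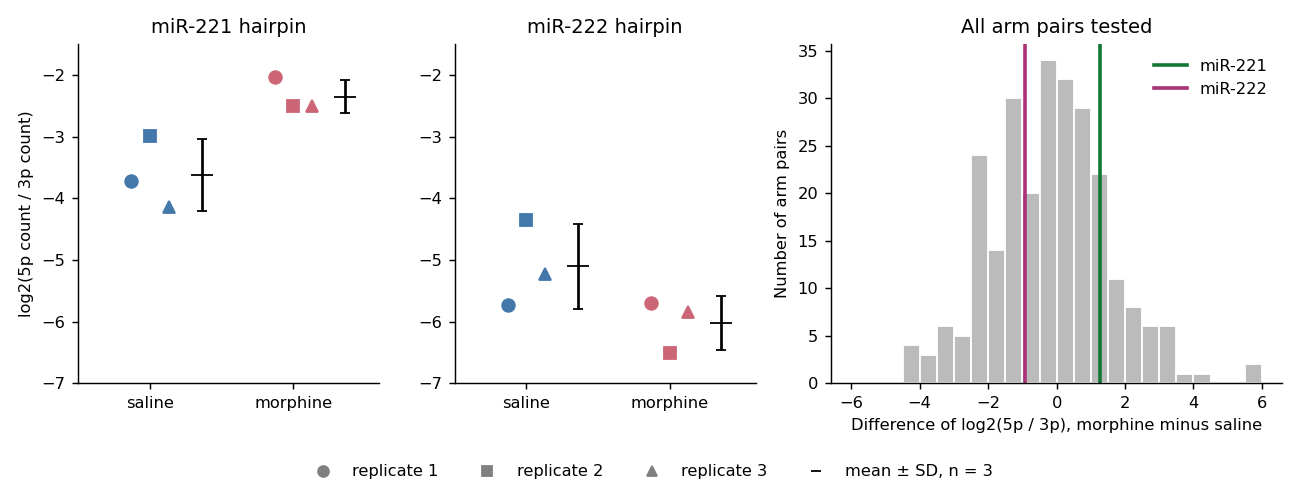
log2 of the 5p count over the 3p count (vertical axis of the left and middle panels) for the miR-221 and miR-222 hairpins in each library, with the replicate number as the symbol and mean ± SD, and the number of arm pairs by the difference of this log2 ratio, morphine minus saline (right panel, 258 pairs). The miR-221 ratio is higher in all 3 morphine libraries, the miR-222 ratio overlaps, and both differences, at 1.27 and -0.91, lie within the range of the other pairs.

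The same arms were then compared between the hairpins. miR-221-3p counts divided by miR-222-3p counts were 1.13, 1.61 and 1.47 in saline and 1.21, 0.718 and 0.833 in morphine. miR-221-3p was the more abundant 3p arm in all 3 saline libraries and in morphine replicate 1, and miR-222-3p in the other two morphine libraries. The log2 ratio differed by -0.63, with overlapping groups and an exact two-sided permutation p of 0.2. miR-221-5p counts divided by miR-222-5p counts were 4.52, 4.18 and 3.11 in saline and 15.3, 11.6 and 8.39 in morphine. This ratio was higher in every morphine library, by 1.55 on the log2 scale or 2.93-fold, with an exact two-sided permutation p of 0.1. Adjusted over the 4 ratios, all of these permutation p were 0.2.

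Co-variation of the clustered miRNAs was measured on log2(CPM + 1) over the 6 libraries. miR-221-3p and miR-222-3p had a Pearson r of 0.730 (exact permutation p of 0.111) and a Spearman rho of 0.429 (exact permutation p of 0.419). Without saline replicates 1 and 3, the libraries farthest from the median of miR-221-3p, r was -0.39, so the relation rests on those libraries together. Their removal also narrows the range of miR-221-3p, which by itself can lower r. With any single library left out, r was 0.584 to 0.839. With each group's mean removed, r was 0.647. Within the groups, 3 libraries each are too few for a correlation. Saline replicate 2 had the lowest level of both 3p arms in its group, and morphine replicate 1 had the highest miR-221-3p and the lowest miR-222-3p in its group.

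**Figure D4:**
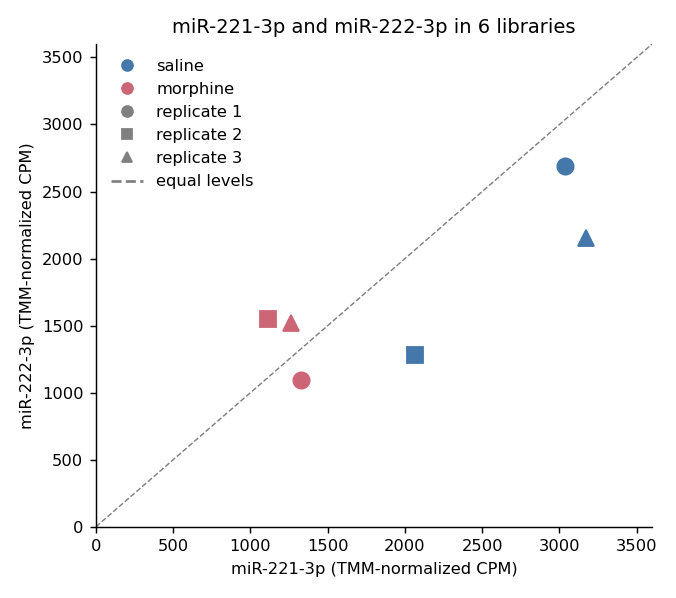
Level of miR-222-3p (vertical axis) against miR-221-3p (horizontal axis), both in TMM-normalized CPM from 0, in the 6 libraries, with colour for the group, the replicate number as the symbol and a dashed line of equal levels. Saline replicates 1 and 3 lie apart at high levels of both, and among the other 4 libraries the points show no rise (r of -0.39).

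Of the 6 pairs among the members, miR-221-3p and miR-222-5p had the highest r, 0.895 (exact permutation p of 0.0569), with a rho of 0.771 (exact permutation p of 0.103). It was 0.973 without saline replicates 1 and 3, but with group means removed r was -0.07. The 2 arms of the Mir221 hairpin had an r of -0.28 (exact permutation p of 0.588) and those of the Mir222 hairpin 0.478 (exact permutation p of 0.328). miR-221-5p had an r of -0.64 with miR-222-3p (exact permutation p of 0.165) and -0.16 with miR-222-5p (exact permutation p of 0.756). The lowest p of the 6 pairs, adjusted by Benjamini-Hochberg, was 0.331. As a description, 284 other pairs of neighbouring miRNAs, from 26 clusters of hairpins on 1 strand within 10000 bases, had a median r of 0.122 with quartiles of -0.60 and 0.706, and 66 of them (23.2%) were above 0.730. Most of these pairs came from a single large cluster, so the median, quartiles and percentage mostly describe that cluster. Taken by cluster, the median of the cluster medians of r was 0.067. The median r was above 0.730 in 5 of the 26 clusters. Each hairpin stood in by its most counted arm among arms whose name belongs to a single hairpin. Where several hairpins share an arm, that arm was left out and the other arm could take its place. This was so for miR-29b-1-5p beside miR-29a-3p. The other pairs are therefore not all pairs of major arms, as the 3p arms of miR-221 and miR-222 are. All these pairs share the same 6 libraries.

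The miRNAs most like a 3p arm were ranked by Pearson r of log2(CPM + 1) over the 6 libraries among 543 miRNAs with at least 100 counts in total. For miR-221-3p they were miR-320-3p (0.985), miR-330-3p (0.985), miR-744-5p (0.984), miR-423-3p (0.981) and miR-124-3p (0.976), the last the most characteristic miRNA of neurons. All 5 had negative log2 fold changes, from -3.30 to -1.40. This sign follows from the choice by r, since the groups of miR-221-3p did not overlap. In the same order, miR-222-5p ranked 54, miR-222-3p ranked 117 and miR-221-5p ranked 284. For miR-222-3p they were miR-346-5p (0.993), miR-128-2-5p (0.975), miR-3086-5p (0.975), miR-412-5p (0.970) and miR-1247-5p (0.967), with miR-221-3p at rank 114. The 2 lists of 5 had no miRNA in common, which was not tested.

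miRNAs of the cell types and processes in which the cluster is best known were read beside it, each list against 19.4% of all miRNAs called. Of 8 endothelial and mural miRNAs, 3 were called higher and 0 lower in morphine, with a median log2 fold change of 1.28, opposite in sign to that of miR-221-3p. miR-126a-3p, the most specific endothelial miRNA, was at 1610, 4685 and 1454 CPM in saline and 16168, 14482 and 10932 CPM in morphine, which put its log2 fold change at 2.42 ± 0.52 (SE), with an adjusted edgeR p of 0.00818. The other two called were miR-143-5p at 1.65 and miR-199a-3p at 1.86, named after their values were seen. miR-143-3p (-0.47), miR-145a-5p (-0.48) and miR-126a-5p (-0.96) did not pass. The summed level of the list was 8792, 23998 and 10673 CPM in saline and 30158, 20298 and 17095 CPM in morphine. It was lowest in saline replicates 1 and 3, in which both 3p arms of the cluster were highest, and highest in morphine replicate 1, in which miR-222-3p was lowest. Nearly all of this sum came from miR-143-3p and miR-126a-3p, so it does not describe the list as a whole. In saline, miR-143-3p was the larger part, at 6766, 18746 and 8831 CPM, and in morphine miR-126a-3p was. Without saline replicate 1, 5 of the 8 were called, beside 17.8% of all miRNAs, and without saline replicate 2, 7 of 8, beside 37.0%. None of its miRNAs was at 0 in any library, and its part in the levels of the cluster was not tested.

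Of 10 proliferation-linked miRNAs, mostly of the miR-17 to miR-92a family of clusters, 1 was called higher and 4 lower, with a median of -0.38. miR-25-3p rose by 1.31 on the log2 scale, while miR-93-5p, from the same hairpin cluster, fell by 1.55, and miR-92a-3p was at -0.01. The other lower calls were miR-21a-5p, miR-19b-3p and miR-19a-3p, the latter pair named after their values were seen. miR-19b-3p was at 2.20, 44.1 and 1.78 CPM in saline and 2.43, 1.32 and 2.04 CPM in morphine, and saline replicate 2 alone stood above the rest. miR-19a-3p had 0 counts in all morphine libraries and 3, 16 and 1 counts in saline. miR-21a-5p was at 2899, 20448 and 2507 CPM in saline and 4225, 2659 and 2606 CPM in morphine, so that its log2 fold change of -1.45 rested on saline replicate 2 and the other saline libraries overlapped the morphine group. Without morphine replicate 1, 3 of the 10 miRNAs were called, beside 13.3% of all miRNAs.

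Of 7 microglial and inflammatory miRNAs, miR-146a-5p, a feedback inhibitor of inflammatory signalling, was called higher (2.29 ± 0.47 on the log2 scale, adjusted edgeR p of 0.00582) and miR-21a-5p lower, with a median of -0.10. The summed level of that list was 3857 to 24049 CPM in saline, the highest in saline replicate 2, and 5660 to 6568 CPM in morphine. Of 6 neuronal miRNAs, 2 were called lower and 0 higher, with a median of -0.28. miR-124-3p was at -1.88 ± 0.46 (SE, adjusted p of 0.0195 in edgeR) and miR-129-5p at -2.07 ± 0.51 (SE, adjusted p of 0.0207 in edgeR), whereas miR-128-3p was at 0.47 and miR-9-5p at -0.15. The summed neuronal level was 157445 to 282653 CPM in saline and 183903 to 212392 CPM in morphine. Of 5 activity-induced miRNAs, from the miR-132 and miR-212 hairpins and miR-134, 0 were called and 0 had an unadjusted p under 0.05 in edgeR, with a median of -0.21, and 1 was called in DESeq2. Of 3 oligodendrocyte miRNAs, miR-219a-5p was called lower (-3.69), at 15, 426 and 23 counts in saline and 36, 5 and 3 in morphine, the highest in saline replicate 2. The more abundant miR-219a-2-3p was at 0.01 and miR-338-3p at -0.31, and the summed level of the list was 1820 to 1903 CPM in saline and 1572 to 1963 CPM in morphine. Of 3 erythroid miRNAs, miR-451a, the red cell miRNA, was called higher (1.57 ± 0.52), while miR-144-3p was at -1.31 and miR-486a-5p at -0.20, with a median of -0.20. Without saline replicate 2, the miRNAs called numbered 4 of 6 neuronal, 1 of 5 activity-induced, 2 of 3 erythroid and 1 of 7 microglial and inflammatory, beside 37.0% of all miRNAs. The microglial and inflammatory count was also 1 without morphine replicate 1 or 2, beside 13.3% and 14.4%. Whether these lists had a part in the levels of the cluster was not tested.

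miR-221 and miR-222 were also read beside the other miRNAs of chromosome X. Of 95 miRNAs with all their hairpins on this chromosome, 91 were not members, and of these 9 were called higher and 8 lower, with a median log2 fold change of 0.05. Members included, 19 of the 95 were called, against 35 without saline replicate 2, when 37.0% of all miRNAs were called. The count was 9 without saline replicate 3, morphine replicate 1 or morphine replicate 2, beside 16.4%, 13.3% and 14.4% of all miRNAs. A count of 0 in some library was found for 35 of the 95, among which there was no member. The most abundant X-linked miRNAs beside the 3p arms were miR-1298-5p, at 0.31 ± 0.44 (SE), and miR-532-5p, at 0.18 ± 0.45, neither of which passed the criteria.

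The members' fold changes were recomputed under other scalings, tests, filters and sets of libraries. miR-221-3p was lower in morphine in all 18 alternatives, with log2 fold changes from -1.56 to -0.99, and passed the criteria in 13 of them, with adjusted p from 1.57e-07 (without saline replicate 2) to 0.468 (without morphine replicate 2). miR-222-5p was lower in all 17 alternatives that could be computed for it, from -1.74 to -1.24, passed in 16 of them, and had adjusted p from 0.000800 to 0.428 with the same libraries left out. miR-222-3p was lower in all 18, from -0.99 to -0.21, and passed in 1. The lowest adjusted p came without saline replicate 2, a setting in which 29.1% of all miRNAs had an adjusted p under 0.05.

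**Figure D5:**
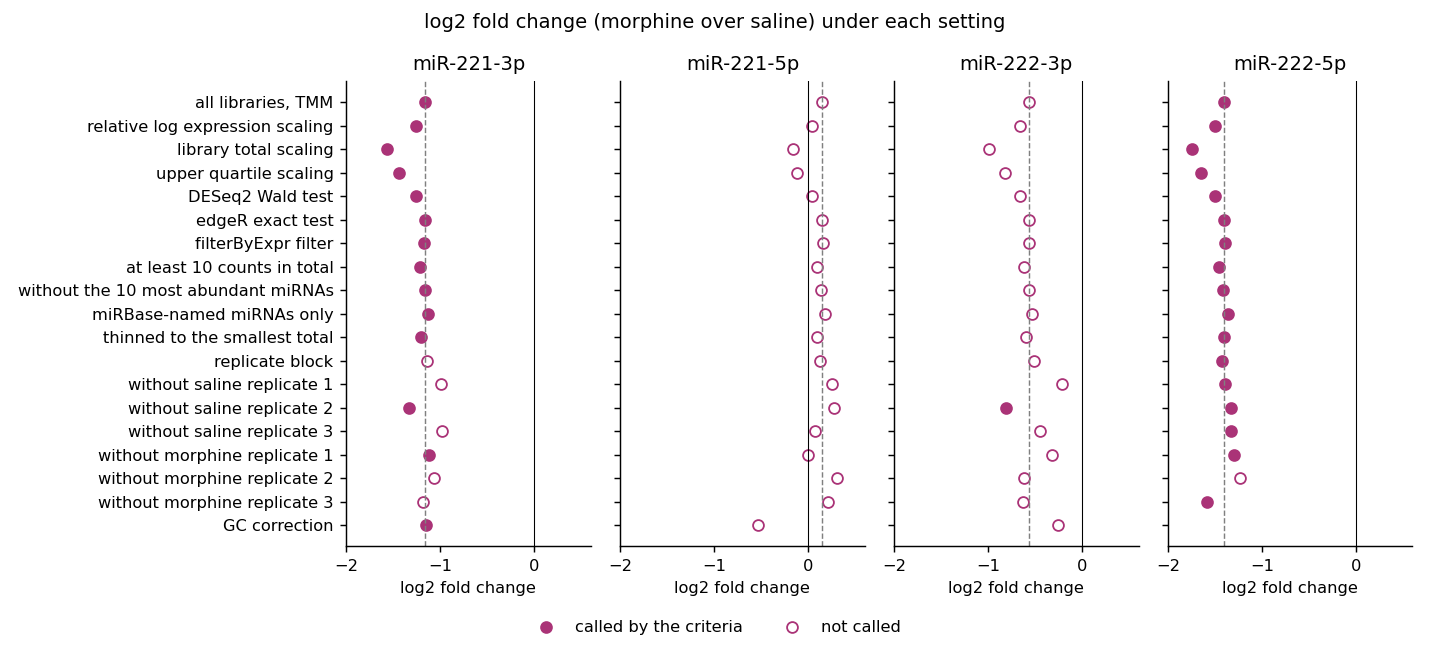
log2 fold change of morphine over saline (horizontal axes) of each member under each setting (vertical axis), with filled points where the criteria were met, open points where they were not, a dashed line at the value with all libraries and TMM scaling and a solid line at 0. miR-221-3p and miR-222-5p lie left of 0 in every setting, miR-222-3p is filled only in the setting without saline replicate 2, and miR-221-5p is open throughout and crosses 0.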

How the data were processed

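The authors prepared small RNA libraries and removed adapter, poly-N and low-quality reads and those shorter than 15 nt or longer than 35 nt. Bowtie was used to discard reads of ribosomal, transfer and other small RNAs and of repeats. Known miRNAs were then named from miRBase, and the paper states that further miRNAs were predicted. Of the 1364 miRNAs with counts, 1281 had a miRBase name. Raw counts were deposited by the authors separately for each library. The deposited TPM column of a library equalled its counts rescaled to a total of 1000000 and went into no test. The genome build and miRBase release are not given in the sources used here. Groups and replicate numbers came from the sample records, and 0 columns were left unused.

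The counts were scaled with TMM and tested with the edgeR 4.0.16 quasi-likelihood F test in R 4.3.3 over all 1364 miRNAs, with all 6 libraries and no covariate. Arm ratios, log2((5p + 0.5)/(3p + 0.5)), were tested with limma 3.58.1 over 258 pairs with at least 10 counts in each arm. Single ratios and correlations were tested with exact permutation tests written in Python 3.11.15, with scipy 1.17.1 for ranks and the Benjamini-Hochberg adjustment. Both models were tested on simulated data. Totals of 4183333 to 9842050 counts set the precision, and intervals cover counting and replicate spread as modelled. Sequences and positions came from RefSeq (GRCm38.p6), where 3 of the 4 members had a mature sequence. Chromosomes of 1246 miRNAs came from RefSeq or, for names without a mature sequence there, from hairpin genes of GENCODE vM21.

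The miRNAs named are the members, the 5 most like each 3p arm and at most 4 of each list, those with the most counts, with exceptions named as chosen after their values were seen. The members, lists and rules were chosen with earlier results of these data known. Alternatives were other scalings, DESeq2 1.42.0, the edgeR exact test, filters, thinning to the smallest total, the replicate number as a block, each library left out, and, chosen after seeing the data, a correction for GC content.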

Additional observations from a re-analysis of the deposited data

How the results depend on the processing

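Leaving out each library in turn gave log2 fold changes from -1.33 to -0.99 for miR-221-3p, 0.00083 to 0.31 for miR-221-5p, -0.81 to -0.21 for miR-222-3p and -1.58 to -1.24 for miR-222-5p. The members called by the criteria then ranged from 0 to 3. The 0 was without morphine replicate 2, beside 14.4% of all miRNAs, and the 3 without saline replicate 2, beside 37.0%. Members with an adjusted p under 0.05 ranged from 0 to 3, the 3 again without saline replicate 2, beside 29.1% of all miRNAs. The arm ratio difference of miR-221 ranged from 1.003 to 1.58 and the correlation of the 3p arms from 0.584 to 0.839. miR-221-5p turned sign to -0.16 with library total scaling, -0.12 with upper quartile scaling and -0.54 with the GC correction, which was chosen after seeing the data, and the cause was not tested. Under that correction miR-221-3p stayed at -1.16 with an adjusted p of 0.0284 in edgeR (1.57e-07 to 0.468 over all its alternatives), miR-222-3p was at -0.26, and miR-222-5p could not be computed. Library total scaling, upper quartile scaling and DESeq2 each gave 2 members with an adjusted p under 0.05. The correlation of the 3p arms was 0.837 with upper quartile scaling (exact permutation p of 0.0486) and -0.39 without the 2 libraries farthest from the median. Of all miRNAs called, 50% were higher in morphine with TMM, 34.9% with library totals and 37.7% with the upper quartile. The number called by the criteria was 264, and 492 without saline replicate 2, and the number at an adjusted p under 0.05 was 71, 160 with library totals, 153 with the upper quartile, 156 in DESeq2, 110 among miRBase names, 110 with the GC correction, 111 after thinning, 28 with at least 10 counts, 386 without saline replicate 2, 37 without morphine replicate 2 and 0 in edgeR without morphine replicate 1, where 176 passed the criteria.

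Deviations of libraries with the same replicate number correlated at -0.23, -0.28 and 0.14, and only morphine replicate 3 correlated best with its own number. With 3 libraries per group, deviations from a group mean depend on each other. This check therefore cannot tell whether the numbers mark pairs or batches. With the replicate block, miR-221-3p was at -1.14 with an unadjusted p of 0.0527 in edgeR, 1 member was called by the criteria, the arm ratio of miR-221 differed by 1.27 with an unadjusted p of 0.0886 in limma, 179 miRNAs were called by the criteria and 32 had an adjusted p under 0.05.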
